A study of Homo sapiens with 2 samples.

Results

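Androgen receptor pioneer factors and coregulators were examined as a list of 9 genes chosen by name, from 57351 gene symbols in the deposited table. They were the pioneer factors FOXA1, HOXB13 and GATA2, the p160 coactivators NCOA1, NCOA2 and NCOA3, the coactivators NCOA4 and EP300, and the corepressor NCOR1. Each of the 9 was found as 1 entry, and all 9 averaged at least 1 TPM across the libraries. RNA-seq was done on 22Rv1, a human prostate cancer line known to grow without androgen and to express full-length and truncated androgen receptor. One group carried an shRNA vector control (shCON) and the other an shRNA against EIF3F (shEIF3F), a subunit of translation initiation factor eIF3, with 1 library each. The labels give no time, medium or androgen level, and do not say whether the knockdown cells were a pool or a clone.

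The androgen receptor is a ligand-activated transcription factor that binds enhancers already opened by pioneer factors, which can engage closed chromatin. Once bound, it recruits p160 coactivators, which in turn bring in the histone acetyltransferase p300, whereas NCoR brings in histone deacetylase and lowers transcription. In prostate luminal cells FOXA1, HOXB13 and GATA2 are known to shape where the receptor binds.

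With 1 library per group no difference has a replicate check, no p-value or error was computed, and an effect of the hairpin other than EIF3F loss cannot be told apart from it. Values are TPM (a standard RNA-seq abundance unit), a level scaled per transcript length and per library total. No read numbers can be had from TPM, and depth is thus unknown. EIF3F had 991 TPM in the control and 17.0 TPM in the knockdown library. All 8 prostate luminal markers reported here were at 1 TPM or more in both libraries, summing to 794 TPM in the control and 1277 TPM in the knockdown library. They went both ways: 4 (KLK2, KLK3, TMPRSS2 and HOXB13) were at least 2-fold lower and 2 (FOLH1 and EPCAM) at least 2-fold higher, and the median log2 ratio was -0.51. Among all genes that averaged at least 1 TPM, 25.5% were at least 2-fold lower and 8.44% at least 2-fold higher. Relative to the median of all genes, 2 of the 8 markers were lower and 3 higher, against 16.0% and 14.7% of all genes. Of the 3 endothelial markers none reached 1 TPM in either library. The basal markers KRT5 and TP63 were listed at 0 in both, and 1 of 4 basal markers, KRT15, was above 1 TPM. Summed levels in shCON and shEIF3F were 2.12 and 6.29 TPM for basal, 11.4 and 2.21 TPM for the 4 neuroendocrine, and 6.18 and 1.03 TPM for the 5 leukocyte markers. The 5 fibroblast markers summed to 40.3 and 27.0 TPM, most of it LUM at 24.3 and 20.9 TPM. The part of these genes in the results below was not tested.

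Promoter windows were found for 7 of the 9 genes in RefSeq, build GRCh38.p14, and those of FOXA1 and GATA2 are shown because they had the highest and the lowest ratio of the 3 pioneer factors. Each window runs 5′ to 3′ from 250 bases before to 50 bases after an annotated start, on the minus strand. The FOXA1 window is chr14:37595200-37595499. The GATA2 windows are chr3:128493152-128493451 at the upstream start and chr3:128488481-128488780 at the downstream start, 4671 bases apart. Capitals mark matches on either strand to the forkhead motif (TGTTTAC or TGTTTGC) or to the NFI core (TTGGC).
FOXA1: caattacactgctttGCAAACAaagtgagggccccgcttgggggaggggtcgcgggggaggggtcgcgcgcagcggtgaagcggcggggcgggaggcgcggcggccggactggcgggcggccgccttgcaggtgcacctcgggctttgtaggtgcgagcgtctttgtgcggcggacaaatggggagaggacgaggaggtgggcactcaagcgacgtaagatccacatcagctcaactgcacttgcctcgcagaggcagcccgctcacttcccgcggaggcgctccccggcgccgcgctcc
GATA2 upstream start: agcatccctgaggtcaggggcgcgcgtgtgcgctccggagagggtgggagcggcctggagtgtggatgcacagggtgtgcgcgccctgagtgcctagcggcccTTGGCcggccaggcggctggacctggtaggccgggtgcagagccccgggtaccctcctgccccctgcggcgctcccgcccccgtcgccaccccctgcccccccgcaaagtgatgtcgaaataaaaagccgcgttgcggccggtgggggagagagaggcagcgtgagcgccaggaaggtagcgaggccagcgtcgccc
GATA2 downstream start: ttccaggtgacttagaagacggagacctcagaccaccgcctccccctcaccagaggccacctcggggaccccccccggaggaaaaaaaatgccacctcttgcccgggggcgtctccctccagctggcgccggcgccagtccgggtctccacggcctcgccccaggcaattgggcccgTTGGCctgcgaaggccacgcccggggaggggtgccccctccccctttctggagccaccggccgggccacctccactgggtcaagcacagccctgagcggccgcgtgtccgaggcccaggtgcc
The FOXA1 window held 1 forkhead match, a motif found in 7.17% of 35116 RefSeq windows of that length. Each GATA2 window held 1 NFI core, found in 45.6% of windows. No match to a GATA motif (AGATAA or TGATAA, 16.3% of windows), a HOXB13 motif (CCAATAAA or CTAATAAA, 1.63%) or the androgen receptor core (AGAACA, 14.8%) was present in the 3 windows. The motifs searched do not overlap one another in these windows. GC content was 69.3% in the FOXA1 window, and 72.3% and 71.3% in the upstream and downstream GATA2 windows, against a median of 58.7% over all windows. The deposited values are per gene, so they do not show which GATA2 start was used.

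The comparison asks which of these transcripts differed in level between the cells depleted of EIF3F and the control cells. The log2 ratio was taken of shEIF3F over shCON after adding 1 to each TPM value, so it is smaller than the plain ratio for genes near 1 TPM. A ratio of 1 or more, or of -1 or less, was counted as at least 2-fold, a rule of size and not a test. By that rule 2 of the 9 genes, GATA2 and HOXB13, were at least 2-fold lower in the knockdown library and 0 were at least 2-fold higher. Among the 13310 genes that averaged at least 1 TPM, 25.5% were at least 2-fold lower and 8.44% at least 2-fold higher, so a count of 2 in 9 lies near the background. The median log2 ratio was 0.10 over the 9 genes and -0.36 over all genes tested. Ratios are therefore also given relative to the median of all genes, a step that adds 0.36 to each. On that scale 1 of the 9, GATA2, was at least 2-fold lower and 1, NCOA4, at least 2-fold higher, where 16.0% and 14.7% of all genes were. After the libraries were rescaled without the 100 most abundant genes the members' counts were again 1 and 1, against 16.2% and 14.8% of all genes. With the GC trend removed, 1 of the 9 was at least 2-fold lower, against 13.9% of all genes, and 0 were higher, against 13.3%.

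**Figure D1:**
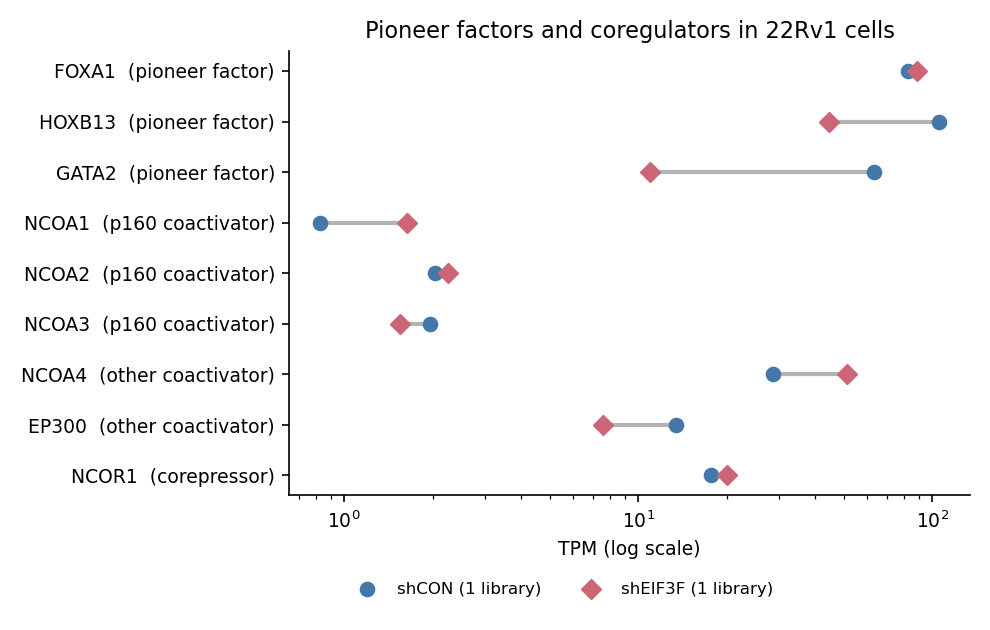
Levels of the 9 genes in TPM on a log axis, 1 library per point, with shCON as circles and shEIF3F as diamonds. GATA2 shows the widest gap, 63.1 against 11.0 TPM, and the FOXA1 points lie close together at 82.8 and 88.6 TPM.

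GATA2, a zinc finger factor that opens androgen receptor enhancers, was the lowest of the 9 in ratio. The control library gave 63.1 TPM and the knockdown library 11.0 TPM, or 17.4% of control, a log2 ratio of -2.42. Of all genes tested, 3.82% had a ratio this low or lower. Its rank by level went from 1801 in shCON to 5007 in shEIF3F among the genes tested. The ratio was -2.06 relative to the median of all genes, -2.01 after rescaling without the 100 most abundant genes and -1.69 with the GC trend removed, so GATA2 was at least 2-fold lower on each scale. The GATA2 transcript used for that correction is 59.7% GC, and genes of similar GC content had a median ratio of -0.73. In bulk RNA, fewer cells that express a gene and less of its RNA per cell cannot be told apart.

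HOXB13, the homeobox factor that marks the prostate lineage and directs the receptor to prostate-specific sites, was the most abundant of the 9 in shCON. Its level was 105 TPM in the control library and 44.4 TPM in the knockdown library, or 42.2% of control, a log2 ratio of -1.23. Of all genes, 19.4% had a ratio as low or lower. The ratio was -0.87 relative to the median of all genes and -0.78 with the GC trend removed, so among these scalings HOXB13 was past 2-fold as deposited only. No other gene shares exons with GATA2 or HOXB13 in GENCODE release 29.

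FOXA1, the forkhead factor that opens most receptor enhancers in prostate cells, had 82.8 TPM in the control library and 88.6 TPM in the knockdown library, a log2 ratio of 0.10. Relative to the median of all genes the ratio was 0.46, and 0.53 after rescaling. Its rank by level was 1438 in shCON and 943 in shEIF3F. FOXA1 shares 16 of its 3982 exon bases with TTC6 on the opposite strand, and TTC6 stood at 3.15 and 3.60 TPM.

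The balance among the 3 pioneer factors can be read within each library, which removes the library total but not the GC trend. Genes of similar GC content had a median log2 ratio of -0.73 for GATA2, -0.45 for HOXB13 and -0.28 for FOXA1. HOXB13 was at 1.27 times the FOXA1 level in shCON and at 0.501 times in shEIF3F. GATA2 was at 0.763 times the FOXA1 level in shCON and at 0.124 times in shEIF3F, a ratio 6.15-fold lower. GATA2 was also 2.42-fold lower against HOXB13, at 0.600 and 0.248 times its level. Summed over the 3 genes the level was 251 TPM in the control and 144 TPM in the knockdown library. FOXA1 held 33.0% of that sum in shCON and 61.6% in shEIF3F, HOXB13 41.9% and 30.8%, and GATA2 25.1% and 7.63%. HOXB13 thus had the largest share in the control library and FOXA1 in the knockdown library.

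**Figure D2:**
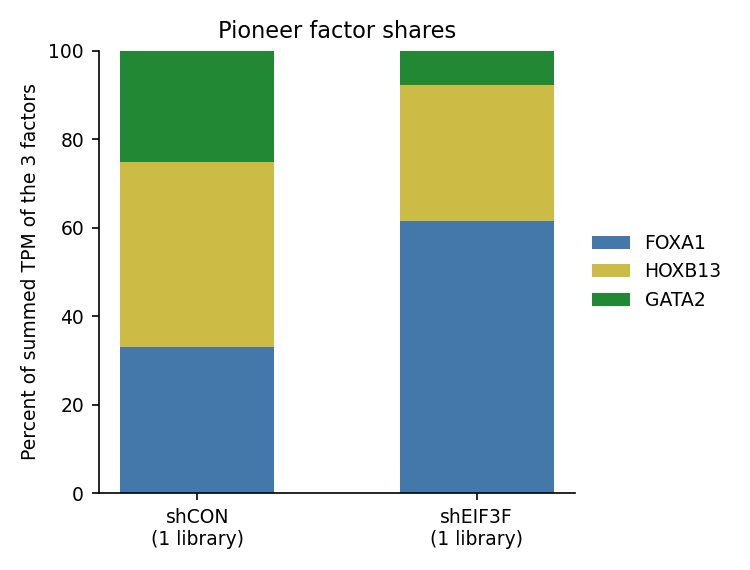
Share of each pioneer factor in the summed TPM of FOXA1, HOXB13 and GATA2, in percent, 1 library per bar. The FOXA1 share is 33.0% in shCON and 61.6% in shEIF3F, and the GATA2 share 25.1% and 7.63%.

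The p160 coactivators, which bind the receptor and link it to p300, were the least abundant members. NCOA1, also known as SRC-1, had 0.83 TPM in the control library and 1.64 TPM in the knockdown library, with a log2 ratio of 0.53 and 1.98 times the control level before the pseudocount. NCOA2, also known as TIF2 or GRIP1, stood at 2.03 and 2.25 TPM (0.10). NCOA3, which is amplified in some breast cancers, stood at 1.96 and 1.55 TPM (-0.22). All 3 were within 2-fold on each scale tried, and NCOA3 turned to 0.14 relative to the median of all genes and 0.060 after rescaling. The number of reads behind these low levels is not known. The 3 genes summed to 4.82 TPM in the control and 5.44 TPM in the knockdown library. NCOA2 was the most abundant of them in both libraries, with 42.1% and 41.4% of the sum, and NCOA1 had 17.2% and 30.2%. NCOA3 shares 96 exon bases with SULF2 on the opposite strand, which stood at 1.39 and 4.50 TPM.

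NCOA4 is unrelated in sequence to the p160 proteins: it was found as the receptor coactivator ARA70 and is also the cargo receptor that carries ferritin to lysosomes. Its level was 28.7 TPM in the control and 51.1 TPM in the knockdown library, 1.78 times higher, with a log2 ratio of 0.81. This was the highest ratio of the 9, and 88.7% of all genes had a ratio as low or lower. NCOA4 was within 2-fold as deposited and with the GC trend removed (0.82), and past 2-fold relative to the median of all genes (1.17) and after rescaling (1.23). The NCOA4 pseudogenes NCOA4P2, NCOA4P3 and NCOA4P4 were listed at 0 in both libraries. The ferritin light chain FTL stood at 1138 and 685 TPM (log2 ratio -0.73) and the heavy chain FTH1 at 2881 and 3406 TPM (0.24), and FTH1 shares 62.4% of its exon bases with BEST1 on the opposite strand.

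EP300 encodes p300, which acetylates histones at active enhancers. Its level was 13.4 TPM in the control and 7.61 TPM in the knockdown library, or 56.7% of control, with a log2 ratio of -0.745. The ratio was -0.39 relative to the median of all genes and -0.35 with the GC trend removed, within 2-fold on each scale tried. Its paralog CREBBP, which encodes the related acetyltransferase CBP, stood at 6.23 and 6.56 TPM (0.06). EP300 was therefore at 2.16 times the CREBBP level in shCON and 1.16 times in shEIF3F, and its share of their sum was 68.3% and 53.7%.

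NCOR1 encodes NCoR, the scaffold that brings histone deacetylase HDAC3 to nuclear receptors. The control library had 17.7 TPM and the knockdown library 20.1 TPM, a log2 ratio of 0.17. NCOR1 shares 321 of its 15404 exon bases with PIGL on the opposite strand, at 9.77 and 6.95 TPM, and its pseudogenes NCOR1P1, NCOR1P2 and NCOR1P3 were listed at 0. The summed p160 level was 0.273 times the NCOR1 level in shCON and 0.271 times in shEIF3F, nearly the same value in both libraries. EP300 was at 0.760 times the NCOR1 level in shCON and 0.379 times in shEIF3F.

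**Figure D3:**
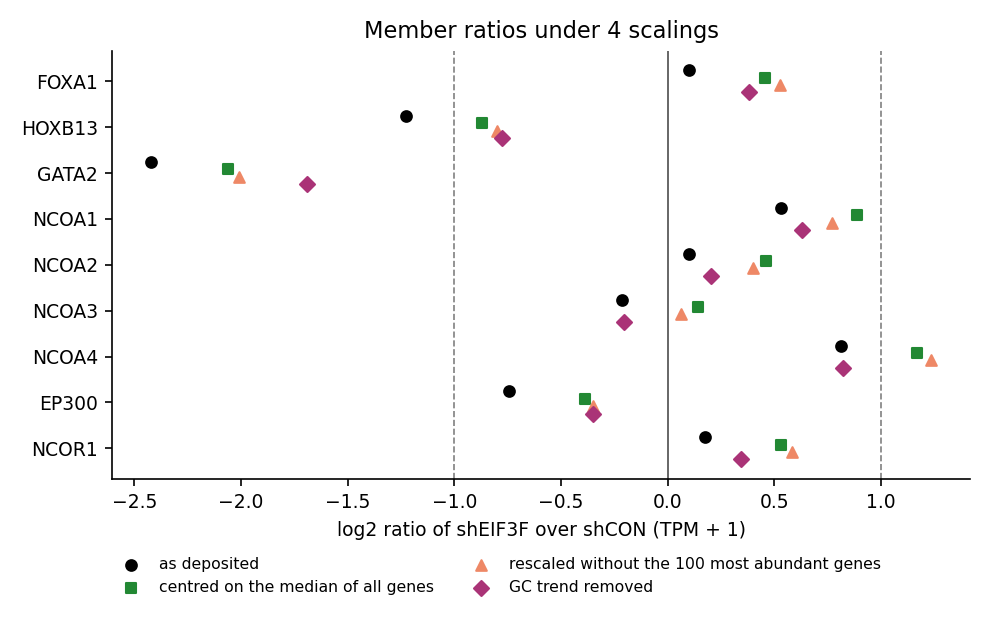
Log2 ratio of shEIF3F over shCON for the 9 genes under 4 scalings, with dashed lines at 2-fold. GATA2 lies past the lower line under each scaling (-2.42 to -1.69), HOXB13 as deposited only, and NCOA4 passes the upper line when ratios are centred (1.17) or rescaled (1.23).

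By level in shCON the order of the 9 was HOXB13, FOXA1, GATA2, NCOA4, NCOR1, EP300, NCOA2, NCOA3 and NCOA1. In shEIF3F it was FOXA1, NCOA4, HOXB13, NCOR1, GATA2, EP300, NCOA2, NCOA1 and NCOA3. With 1 library each, neighbours in these orders, such as NCOA1 and NCOA3 in shEIF3F at 1.64 and 1.55 TPM, cannot be said to differ.

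Classic targets of the receptor were set beside these genes. All 5 listed were at least 2-fold lower as deposited, from KLK4 (log2 ratio -3.29), KLK2 (-3.26) and KLK3 (-1.87) to TMPRSS2 (-1.29) and FKBP5 (-1.18), and 3, the kallikreins, remained so relative to the median of all genes. Of all genes tested, 25.5% were as deposited and 16.0% relative to the median at least 2-fold lower.

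Other transcription factors that work with the receptor or open chromatin went both ways. Of 27 listed, 20 averaged at least 1 TPM, 4 were at least 2-fold lower and 4 at least 2-fold higher, with a median of -0.09, against 25.5% lower and 8.44% higher among all genes. The nuclear factor I family, which binds beside FOXA1 and the receptor, held 3 of the 4 lower genes. NFIA had 36.6 TPM in the control and 0.35 TPM in the knockdown library, a log2 ratio of -4.80. NFIX stood at 209 and 26.4 TPM (-2.94), the most abundant of the family in both libraries. NFIC stood at 34.4 and 6.29 TPM (-2.28), while NFIB was low in both at 2.67 and 2.36 TPM. Summed over the 4 genes, the family had 283 TPM in the control and 35.4 TPM in the knockdown library. The ETS factor ELK1, which can tether the receptor to growth genes, stood at 37.2 and 5.60 TPM (-2.53). NFIA, NFIX, NFIC and ELK1 were at least 2-fold lower once ratios were centred as well, and the list then had 4 lower and 7 higher genes, against 16.0% and 14.7% of all genes. With a pseudocount of 5 the count higher was 0. The 4 higher genes, named after their values were seen, were SOX9 (1.46), GATA6 (1.39), ETV4 (1.23) and CREB1 (1.08).

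GATA6 was examined further beside GATA2 because both belong to one family. It had 3.37 TPM in the control and 10.5 TPM in the knockdown library, so the GATA6 level was 0.053 times that of GATA2 in shCON and 0.951 times in shEIF3F. Of the summed level of the 6 GATA genes, GATA2 held 90.4% in shCON and 44.9% in shEIF3F, and GATA6 4.82% and 42.7%. GATA3 and GATA5 were below 2 TPM in both libraries. GATA6 shares 8.14% of its exon bases with 1 antisense gene and 6.08% with another, GATA6-AS1, and without knowledge of strand in the counting those reads cannot be assigned. FOXA1 by contrast held 99.6% and 99.7% of the FOXA family sum.

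**Figure D4:**
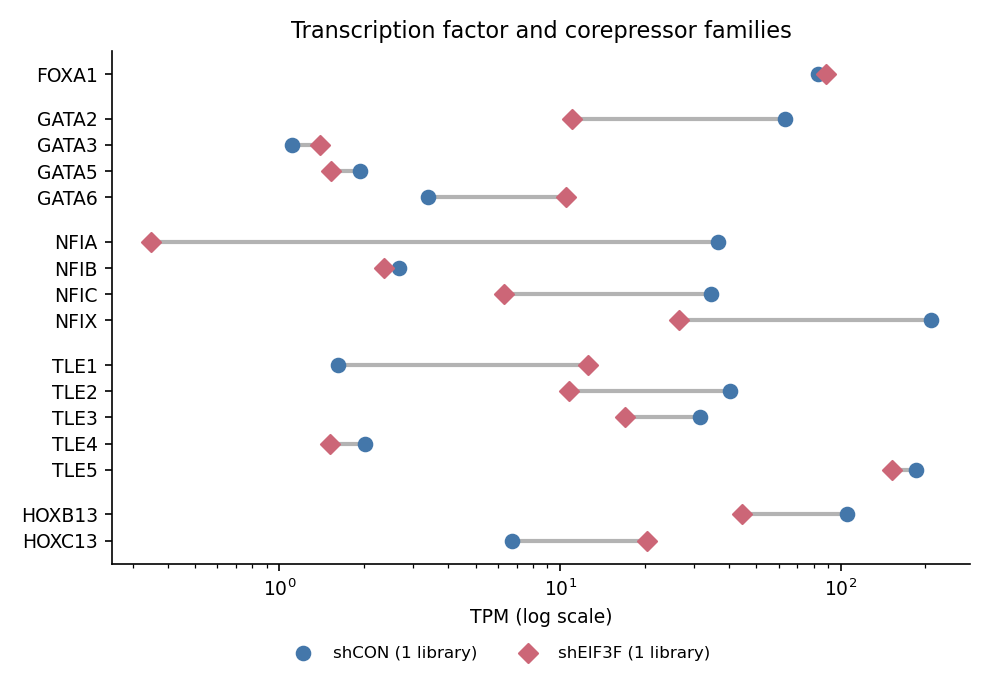
Levels in TPM on a log axis for family members that averaged at least 1 TPM, 1 library per point (shCON circles, shEIF3F diamonds). NFIA runs from 36.6 to 0.35 TPM, GATA2 and GATA6 meet at 11.0 and 10.5 TPM in shEIF3F, and TLE1 and TLE2 lie in opposite order in the libraries.

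Coactivator complexes around p300 and the p160 proteins were mostly within 2-fold. Among acetyltransferases, arginine methyltransferases and their partners, 3 of 13 measured genes were at least 2-fold lower and 1 higher (median -0.36). These were 23.1% and 7.69%, against 25.5% and 8.44% of all genes. Once ratios were centred on the median, 2 were lower and 2 higher, 15.4% each, against 16.0% and 14.7% of all genes. PRMT1, the arginine methyltransferase that modifies histone H4, stood at 725 and 299 TPM (log2 ratio -1.28), KAT2A, the GCN5 acetyltransferase, at 49.8 and 18.1 TPM (-1.41) and PPARGC1B at 4.98 and 0.88 TPM (-1.67). PRMT1 was within 2-fold once centred (-0.92), and KAT2A with the GC trend removed (-0.68). CITED2, which binds p300 and CBP, was the higher gene as deposited, at 72.8 and 188 TPM (1.36). Mediator, the bridge from enhancer factors to RNA polymerase II, had 6 of 32 measured subunits at least 2-fold lower and 0 higher (median -0.44). The lower share was 18.75%, against 25.5% of all genes, while 8.44% of all genes were higher. Once ratios were centred on the median, 3 were lower and 3 higher, 9.38% each, against 16.0% and 14.7% of all genes. MED30 stood at 34.8 and 8.41 TPM (-1.93), the kinase module cyclin CCNC at 18.1 and 4.96 TPM (-1.68), MED26 at 12.2 and 2.69 TPM (-1.84) and MED9 at 15.8 and 6.26 TPM (-1.21). MED26 shares 27.2% of its exon bases with another gene on the same strand, so its value is uncertain. Smaller overlaps with other genes are annotated for KAT2A (10.8% of exon bases), CCNC (9.16%) and PRMT1 (7.63%).

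Chromatin remodellers and histone lysine enzymes had 9 of 23 genes, 39.1%, at least 2-fold lower and 0 higher (median -0.57). Of all genes, 25.5% were lower and 8.44% higher. Relative to the median of all genes, 7 of 23, 30.4%, were lower and 0 higher, against 16.0% and 14.7% of all genes. The SWI/SNF subunits SMARCC1, at 33.2 and 5.19 TPM (-2.46), and SMARCD1, at 42.3 and 9.03 TPM (-2.11), were among the lowest. ARID1A (-1.09) was lower as well, while SMARCC2 (-0.71), SMARCA4 (-0.57) and SMARCB1 (-0.25) were within 2-fold. SMARCE1 (0.17), SMARCA2 (0.10) and ARID1B (0.05) had ratios above 0, within 2-fold. SMARCE1 shares 19.8% of its exon bases with another gene on the same strand. The histone H3 lysine 36 methyltransferase NSD2 stood at 33.0 and 6.17 TPM (-2.25). The lysine demethylase KDM4A stood at 18.2 and 2.06 TPM (-2.65), but it shares 40.2% of its exon bases with another gene on the same strand. Other proteins that bind the receptor were mostly within 2-fold, with 4 of 26 lower and 1 higher (median -0.44). These were 15.4% and 3.85%, against 25.5% and 8.44% of all genes. The deubiquitinase USP22 stood at 82.2 and 21.8 TPM (-1.87), HIP1 at 12.9 and 2.92 TPM (-1.83) and the SUMO ligase PIAS4 at 23.0 and 6.76 TPM (-1.63), whereas gelsolin GSN stood at 4.27 and 15.2 TPM (1.62).

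Corepressors around NCOR1 were within 2-fold as deposited. All 5 listed partners in the NCoR complex were so, with a median of -0.64. Of all genes tested, 8786 of 13310 were within 2-fold, and the median was -0.36. HDAC3, its deacetylase, stood at 63.1 and 34.5 TPM (-0.85), with 9.20% of its exon bases under an antisense gene, and the WD40 subunits TBL1X at 7.79 and 4.40 TPM (-0.70) and TBL1XR1 at 5.95 and 3.47 TPM (-0.64). Centred, the 3 were at -0.50, -0.35 and -0.28. CORO2A stood at 4.18 and 2.54 TPM (-0.55). The fifth partner, GPS2, had a ratio above 0 as NCOR1 did, at 36.7 and 47.8 TPM (0.37), and its ratio exceeded 1 once the GC trend was removed (1.12). However, GPS2 shares 44.7% of its exon bases with another gene on the same strand and 7.80% with EIF5A on the opposite strand, so its value is uncertain. Of 26 other corepressors 5 were at least 2-fold lower and 2 higher (median -0.31), and 1 and 3 once ratios were centred. The shares as deposited were 19.2% and 7.69%, against 25.5% and 8.44% of all genes. Centred, they were 3.85% and 11.5%, against 16.0% and 14.7% of all genes. The Groucho family corepressor TLE1 stood at 1.62 and 12.5 TPM (2.37) and its relative TLE2 at 40.3 and 10.7 TPM (-1.82). LCOR stood at 0.68 and 3.49 TPM (1.42) and SPEN at 15.4 and 6.22 TPM (-1.18). LCOR was within 2-fold with a pseudocount of 5 (0.58), SPEN once centred (-0.83) and TLE2 with the GC trend removed (-0.91). With that trend removed, 0 of these other corepressors were lower and 3 higher, against 13.9% and 13.3% of all genes. TLE5 remained the most abundant of the 5 TLE genes, at 186 and 152 TPM.

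**Figure D5:**
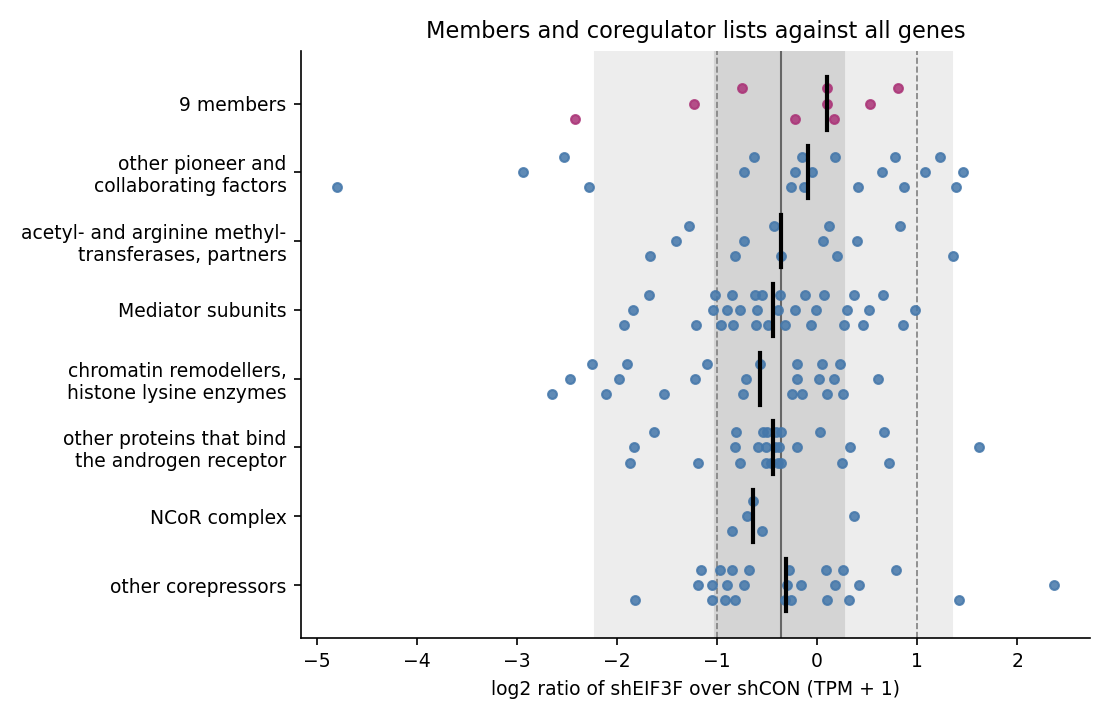
Log2 ratio of shEIF3F over shCON for the 9 genes and 7 lists of other receptor partners, 1 point per gene that averaged at least 1 TPM, spread vertically only for visibility. Black bars are list medians, the grey line is the median of all genes (-0.36), the dark and light bands hold the central 50% and 90% of all genes, and dashed lines mark 2-fold.

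Over the 7 lists together, 31 of 145 measured genes (21.4%) were at least 2-fold lower and 8 (5.52%) at least 2-fold higher, with a median of -0.39. All genes tested had 25.5%, 8.44% and -0.36, so the lists as a whole lay near the background. Relative to the median of all genes 20 were lower (13.8%) and 18 higher (12.4%), against 16.0% and 14.7% of all genes. Each pioneer factor was also set beside the genes of these lists closest to it in level over both libraries, by distance in log2(TPM + 1) over 2 points. FOXA1 lay closest to SMARCB1 (distance 0.52), SFPQ (0.55) and CTNNB1 (0.62), HOXB13 to CTBP1 (0.45), SMARCA4 (0.48) and CTNNB1 (0.64), and GATA2 to MEN1 (0.60), SMARCD1 (0.62) and TLE2 (0.63).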

How the data were processed

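Total RNA from 22Rv1 cells with shCON or shEIF3F, 1 library each, was extracted with Trizol and made into libraries with an Illumina TruSeq RNA kit, per the labels' protocols. The authors deposited 1 TPM value per gene and library, with 2 decimals. Per the submitters' processing notes the tools include CASAVA and HISAT2, with no versions, and the build is hg19; which counter, annotation, strand setting and filters were used is not given in the sources used here.

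Of 58884 entries, those repeating a symbol were summed, 27 whose symbols had become dates were left out, and small RNA genes were left out. The 13310 genes that averaged at least 1 TPM were compared by log2 ratio with a pseudocount of 1. TPM keeps no read number, so no interval or detection limit was computed. GENCODE release 29, on GRCh38, gave gene types, transcript GC content (known for 99.1% of genes tested), length and exon overlap. GC and length trends were removed by centring ratios within 20 bins. Other alternatives were pseudocounts of 0.1 and 5, no minimum or a mean of 5 TPM, centring on the median, rescaling without the 100 most abundant genes, and keeping only the top entry of a repeated symbol.

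The members and lists were chosen with earlier results of these data known. Genes were named by rule: the 9 members, EIF3F, CREBBP, the receptor's targets, from each list up to 4 genes farthest from 0 in log2 ratio, and the 3 nearest genes to each pioneer factor. NFIB, the other GATA genes, TLE5, HOXC13 and the further SWI/SNF subunits were chosen after values were seen. So were the within-library ratios to CREBBP and GATA6, and overlapping, pseudogene and neighbouring genes. GPS2 was named outside the rule as well. Some genes of these lists are not reported here and enter none of the list counts. Steps were checked on simulated data. Python 3.11.15, NumPy 2.4.6, pandas 2.3.3 and matplotlib 3.10.9 were used.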

Additional observations from a re-analysis of the deposited data

How the results depend on the processing

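No paired analysis was possible because each group had 1 library, and no replicate could be left out. Of 78 values of the 9 genes under the alternatives, 71 stayed on the same side of 2-fold and 0 reversed past it. HOXB13 was within 2-fold at -0.87 after centring on the median, -0.80 after rescaling, -0.78 with the GC trend and -0.87 with the length trend removed. NCOA4 passed 2-fold at 1.17, 1.23 and 1.23 after centring, rescaling and removal of the length trend. The count of members at least 2-fold lower was accordingly 1 under these 4 settings and the count higher was 1 under 3 of them. NCOA1, NCOA2 and NCOA3 gave no value at a mean of 5 TPM or more. Over the 7 lists, the count lower was 20 after centring, 19 after rescaling, 17 with the GC trend removed and 20 with the length trend removed, against 31 as deposited, and the count higher 13 with a pseudocount of 0.1, 3 with a pseudocount of 5, 18 after centring, 17 after rescaling and 16 with the length trend removed, against 8 as deposited. Centring fixes the median of all genes at 0 by construction, and which scaling is right was not tested. With a pseudocount of 1 on each gene, the change in EP300 over NCOR1 between the libraries was -0.92 in log2 and no longer reached 2-fold; the other 8 within-library gene ratios tried kept their side of it, 3 of them to genes outside the 9, an alternative chosen after seeing the data.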

Other observations

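Genes next to HOXB13 in the HOXB cluster, chosen after their values were seen, had ratios of both signs. PRAC1 and PRAC2 encode small proteins known mainly from prostate and distal bowel, and their genes are the nearest coding genes on 1 side of HOXB13 in the RefSeq gene order. PRAC1 had 72.7 TPM in the control and 298 TPM in the knockdown library, a log2 ratio of 2.02, and PRAC2 had 40.4 and 2.32 TPM (-3.64). These 2 neighbours thus lay past 2-fold in opposite directions, while HOXB13 itself was at -1.23. PRAC2 shares exon bases with the small RNA genes RF02132 (19.2%), RF02133 (12.2%) and, on the opposite strand, MIR3185 (10.35%), so its value is uncertain. On the other side TTLL6 stood at 2.05 and 3.96 TPM (0.70). Farther along the cluster HOXB7 stood at 7.19 and 13.0 TPM (0.77), HOXB5 at 1.30 and 4.24 TPM (1.19) and HOXB6 at 4.74 and 4.97 TPM (0.06), while HOXB3 (-0.53), HOXB4 (-0.63) and HOXB9 (-0.45) had ratios below 0 within 2-fold. Among the paralogs of HOXB13, HOXC13 stood at 6.72 and 20.4 TPM (1.47), and HOXB13 held 93.3% of the summed level of the 4 HOX13 genes in shCON and 67.7% in shEIF3F.

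Antisense genes at 2 of the members' loci were also chosen after their values were seen; EP300-AS1 was at least 2-fold lower and GATA2-AS1 within 2-fold. GATA2-AS1 is transcribed opposite to GATA2 from a RefSeq start that lies between the 2 GATA2 starts, 673 bases upstream of the downstream one and 3998 bases downstream of the upstream one. It had 44.0 TPM in the control and 22.8 TPM in the knockdown library, a log2 ratio of -0.92, and shares no exon bases with GATA2 in GENCODE release 29. GATA2 was at 1.44 times the GATA2-AS1 level in shCON and 0.482 times in shEIF3F. EP300-AS1 stood at 2.61 and 0.09 TPM (-1.73), and EP300 itself at 13.4 and 7.61 TPM. The EP300-AS1 levels are low, and with a pseudocount of 5 its ratio was -0.58, within 2-fold.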
